A study of Homo sapiens with 12 samples.

Results

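The genes described here are the heat shock chaperones of the cytosol and the mitochondrion, with their J-domain partners, nucleotide exchange factors, chaperonins and the heat shock factors HSF1 and HSF2. They were chosen by gene symbol, without 7 chaperones of the endoplasmic reticulum, and 83 of the 59577 genes in the table met that rule. The rule was set with earlier results of these data known. Since the choice goes by symbol, it also takes in a few J proteins that work elsewhere, such as DNAJB12 and DNAJB14 in the endoplasmic reticulum membrane.

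H1299 is an established human lung cancer line, given as adenocarcinoma in the labels. The hyperoxia group was 6 samples kept for 24 h at 60% oxygen, 5% CO2 and 35% nitrogen, and the normoxia group was 6 samples at 21% oxygen, 5% CO2 and 74% nitrogen. Total RNA was sequenced, and the deposited values are TPM, a read abundance scaled for gene length and to a common total in each sample. All samples are the same line with no genetic change between groups, and nothing in the labels tells whether replicates came from separate cultures. The p-values therefore reflect only sample-to-sample spread, possibly technical.

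TPM sums were 996138 to 998797 per sample, and 14275 to 14635 genes reached 1 TPM. The unit does not carry read depth, which is therefore unknown here. Normoxia samples 4 to 6 stood apart from normoxia samples 1 to 3. On the first principal component, which held 20.7% of the variance, they lay at 18.7 to 33.3, normoxia 1 to 3 at 5.12 to 9.44, and the hyperoxia samples at -19.8 to -11.3. The second component held 11.7% of the variance. There normoxia 1 to 3 lay at -30.0 to -9.59, away from normoxia 4 to 6 at 2.01 to 16.9 and the hyperoxia samples at -1.37 to 15.5. Which of the normoxia samples are the unusual ones is therefore not settled. Results that rest on normoxia samples 4 to 6 are given with and without them. No fit left out normoxia samples 1 to 3 together. Of the epithelial markers, KRT8 and KRT18 averaged 592 and 947 TPM in hyperoxia, against 603 and 955 TPM in normoxia, while EPCAM, CDH1 and KRT19 stayed under 1 TPM on average in both. The lung lineage markers NKX2-1, SFTPB, SFTPC, NAPSA and SCGB1A1 were also under 1 TPM on average in both groups. Of leukocyte, endothelial and fibroblast markers, CD68 averaged 44.5 TPM in hyperoxia and 44.5 TPM in normoxia, COL1A1 lay near 1 TPM, and the other 10 of 12 were under 1 TPM on average in both.

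Chaperones hold unfolded proteins and let them fold. HSP70 proteins bind short exposed stretches of a client, and J proteins (the DNAJ families) deliver clients and start ATP hydrolysis. Nucleotide exchange factors, such as the HSP110 and most BAG proteins, release the client. HSP90 finishes the folding of kinases and receptors with the help of co-chaperones, while the ring-shaped chaperonins TRiC in the cytosol and HSP60 with HSP10 in mitochondria enclose their clients. HSF1 switches on many of these genes when unfolded proteins accumulate, as after heat or oxidative damage.

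Of the 83 members, 64 averaged at least 1 TPM over the 12 samples and were tested; 15 were detected below that level and 4 were listed at 0 in every sample. After 24 h at 60% oxygen 14 of the 64 were higher and none was lower (limma, Benjamini-Hochberg adjusted p under 0.05 over all 14520 genes tested). Over all genes tested, 11.7% were higher and 5.63% lower. At an unadjusted p under 0.05 the lower members were DNAJB12, DNAJC30 and HSPA8. The J protein gene DNAJB4 had the largest change, with a mean 1.91 times that of normoxia. The other 13 members that rose did so by 0.13 to 0.30 on the log2 scale, which is small beside the change of DNAJB4. The median log2 fold change of the 64 members was 0.08, against 0.03 over all genes tested.

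**Figure D1:**
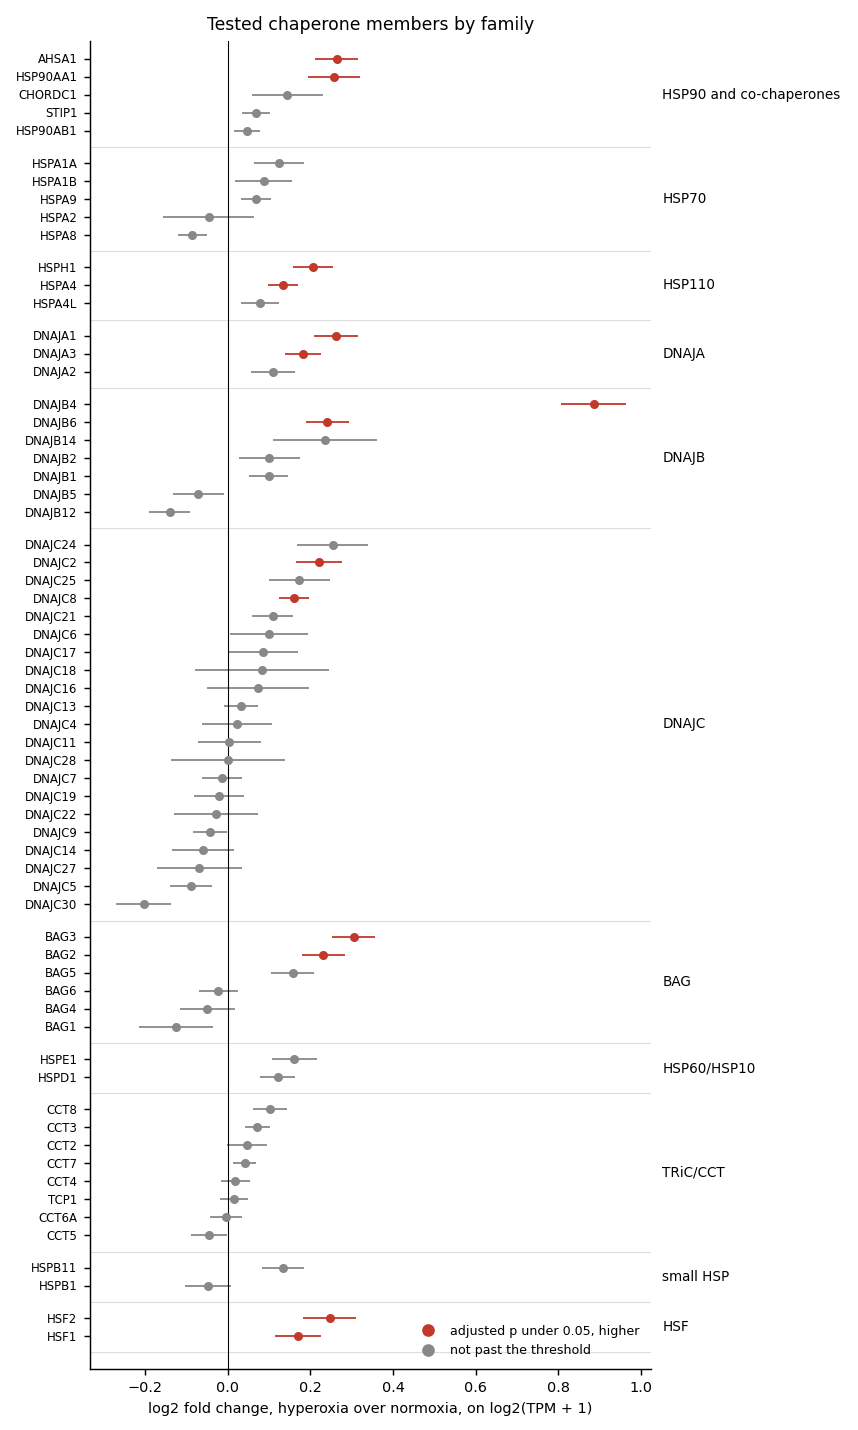
Log2 fold change (hyperoxia over normoxia, on log2(TPM + 1)) of the 64 tested members, grouped by family; points are limma estimates, bars are 1 SE, and red marks the 14 members past the threshold. DNAJB4 at 0.88 lies far to the right, and the other red points lie between 0.13 and 0.30.

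In 6 members every hyperoxia sample lay above every normoxia sample, and in none below; over all genes tested these shares were 6.2% and 2.58%. The 6 were DNAJB4, BAG3, BAG2, DNAJA1, DNAJA3 and HSPA4. How firm the 14 calls are differs by gene. AHSA1, BAG3, DNAJA3 and DNAJB4 passed in each of the 22 alternative analyses. Without normoxia samples 4 to 6, which leaves 3 controls, 5 members passed, namely those 4 and HSPH1, and 6.89% of all genes were higher. The log2 fold changes themselves then lay between 0.15 and 0.89 for the 14, with none reversed. When samples were rescaled by median of ratios instead of using TPM as deposited, 10 members were higher and 3 lower (DNAJB12, DNAJC30 and DNAJC5), while 8.81% of all genes were higher and 8.79% lower. Quantile normalisation gave 13 higher and the same 3 lower members, against 9.9% and 8.32% of all genes. An exact rank-sum test per gene gave 10 higher and 0 lower members, against 8.29% and 3.55% of all genes. RNA was taken from whole cultures, so a change in every cell and a change in the share of cells in some state cannot be told apart.

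**Figure D2:**
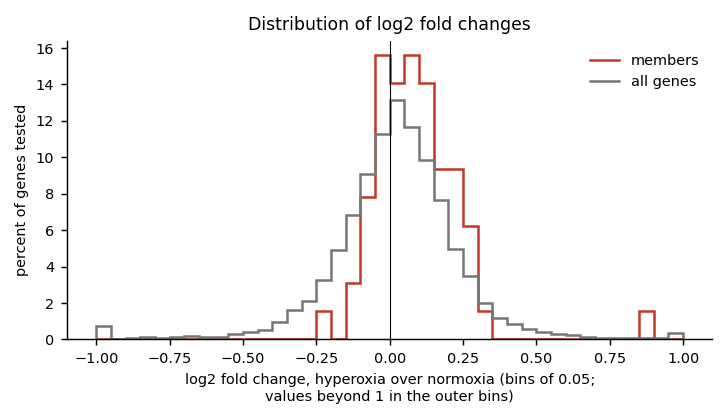
Share of genes per bin of log2 fold change (bins of 0.05, x axis in log2 units of hyperoxia over normoxia; values beyond 1 in the outer bins) for the 64 tested members and for all 14520 genes tested. Members lie mostly between -0.25 and 0.35, with DNAJB4 alone to the right.

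Both heat shock factors were among the members that rose. HSF1 (ENSG00000185122), the main activator of heat shock genes, measured 82.9 to 97.5 TPM (median 87.9) in hyperoxia and 70.1 to 88.2 TPM (median 78.9) in normoxia. Its groups overlapped, and its log2 fold change of 0.17 (SE 0.06, limma adjusted p = 0.0493) lay just inside the threshold. HSF1 lost its call in 14 of the 22 alternatives, with an adjusted p of 0.0799 by rank-sum test and 0.0529 without normoxia samples 4 to 6; the highest was 0.11. HSF2 (ENSG00000025156), a related factor that can pair with HSF1, measured 21.2 to 23.2 TPM (median 21.9) in hyperoxia. In normoxia it measured 16.5 to 22.5 TPM (median 18.3), where 1 sample, replicate 2, reached into the hyperoxia range and the other 5 lay below it. The log2 fold change of HSF2 was 0.25 (SE 0.06, limma adjusted p = 0.0173). It lost the call by exact rank-sum test (adjusted p = 0.151) and without normoxia samples 4 to 6 (adjusted p = 0.114).

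HSF1 protein binds heat shock elements, in which the letters TTC and GAA alternate. Promoter windows of 300 bases (250 before and 50 after each gene's start) were taken from RefSeq on GRCh38.p14 and searched on both strands; 73 of the 83 members had at least 1, with 99 windows in all. The form with 3 repeats (TTC, GAA and TTC, each 2 bases apart, or its reverse complement) was in 8.08% of the members' windows, against 0.49% of all 35116 windows. A form with 2 repeats (TTC then GAA, or GAA then TTC, again 2 bases apart), which the 3-repeat form contains, was in 30.3% of the members' windows and 13.5% of all windows. Among members, the 3-repeat form occurred in 8 genes: 3 that rose (HSP90AA1, DNAJA1 and DNAJB6), 4 tested that did not pass and 1 below 1 TPM. Of genes with a window, that is 23.1% of the 13 that rose and 8.89% of the 45 that did not pass. The difference between these shares was not tested. Antioxidant response element letters (TGAC, any 3 bases, then GC) were in 13.1% of the members' windows and 13.3% of all windows.

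Shown are 1 match from each of those 8 genes, because they set side by side members that rose and members that did not, and then the 2-repeat match of DNAJB4, the gene with the largest change, and of the classical heat-induced genes HSPA1A and DNAJB1. Capitals mark the matched letters, with 8 bases on each side where the window allows, written 5′ to 3′ on the gene's strand.
HSP90AA1 (rose), chr14:102087112-102087140, minus strand: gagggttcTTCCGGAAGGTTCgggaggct
DNAJA1 (rose), chr9:33025268-33025296, plus strand: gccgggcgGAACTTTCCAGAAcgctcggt
DNAJB6 (rose), chr7:157336865-157336893, plus strand: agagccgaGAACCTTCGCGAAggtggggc
HSP90AB1 (did not pass), chr6:44247823-44247851, plus strand: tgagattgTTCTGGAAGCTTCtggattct
HSPA8 (did not pass), chr11:123062171-123062199, minus strand: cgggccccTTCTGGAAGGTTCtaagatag
HSPD1 (did not pass), chr2:197500060-197500088, minus strand: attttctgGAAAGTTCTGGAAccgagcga
CHORDC1 (did not pass), chr11:90223084-90223112, minus strand: ccggaaaaTTCGCGAAGGTTCctgaaacg
HSPA6 (below 1 TPM), chr1:161524458-161524486, plus strand: cggaaaggTTCGCGAAAGTTCgcggcggc
DNAJB4 (rose), chr1:78004833-78004856, plus strand: atttgctgTTCTAGAAagtacaga
HSPA1A (did not pass), chr6:31815429-31815452, plus strand: aaaccctgGAATATTCccgacctg
DNAJB1 (did not pass), chr19:14518459-14518482, minus strand: gcggggcgGAAGGTTCtggagggg
The matches are letters in a window and not measured binding. The DNAJA1 match lies just after the gene's start and the others before it. HSP90AA1 and HSPA8 both hold the 3-repeat form, and of the pair HSP90AA1 was higher in hyperoxia while HSPA8 had a fold change below 0 and did not pass. The pair is an example only, and the difference between its fold changes was not tested.

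J proteins were the largest group, with 38 members, of which 31 were tested, 6 rose and none fell. The 6 are 19.4% of those tested, against 11.7% of all genes higher and 5.63% lower. In DNAJB4 (ENSG00000162616), a heat-inducible J protein close to DNAJB1, hyperoxia samples measured 21.6 to 29.2 TPM (median 24.4), against 10.9 to 15.2 TPM (median 12.8) in normoxia. All 6 hyperoxia samples lay above all 6 normoxia samples by a wide margin. Its log2 fold change was 0.88 (SE 0.08, limma adjusted p = 9.03e-06), and 0.89 without normoxia samples 4 to 6 (adjusted p = 0.00194). DNAJB1 (ENSG00000132002), the main heat-induced partner of HSP70, measured 120.3 to 138 TPM in hyperoxia and 109 to 133 TPM in normoxia. The DNAJB1 groups overlapped, and its log2 fold change of 0.10 did not pass (SE 0.05, limma adjusted p = 0.172; unadjusted 95% interval -0.0022 to 0.20).

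DNAJA1 (ENSG00000086061), the abundant cytosolic type A partner of HSP70, measured 155 to 186 TPM (median 169) in hyperoxia and 129 to 153 TPM (median 140.4) in normoxia, without overlap. It rose by 0.26 on the log2 scale (SE 0.05, limma adjusted p = 0.00478; 0.0516 without normoxia samples 4 to 6). Its mitochondrial relative DNAJA3 (ENSG00000103423) was tighter in hyperoxia, at 49.6 to 53.1 TPM, than in normoxia, at 41.1 to 48.02 TPM. DNAJA3 also had no overlap and rose by 0.18 (SE 0.04, limma adjusted p = 0.0133). DNAJB6 (ENSG00000105993), which keeps polyglutamine proteins from aggregating, measured 251 to 317 TPM (median 290.1) in hyperoxia and 230.5 to 253 TPM (median 242) in normoxia. A single hyperoxia sample of DNAJB6 fell within the normoxia range; the gene rose by 0.24 (SE 0.05, limma adjusted p = 0.00632; 0.0516 without normoxia samples 4 to 6). DNAJA2, the further type A protein tested, averaged 44.7 ± 3.48 TPM in hyperoxia and 41.3 ± 1.98 TPM in normoxia (SD, n = 6 each) and did not pass.

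Of 21 tested DNAJC genes, whose proteins often tie HSP70 to 1 process or place, 2 rose and 19 did not pass; the 2 are 9.52%, near the 11.7% of all genes. DNAJC8, which works with the spliceosome, averaged 128 ± 6.35 TPM in hyperoxia and 115 ± 3.44 TPM in normoxia, with 1 hyperoxia sample inside the normoxia range (log2 fold change 0.16, limma adjusted p = 0.00929). DNAJC2, which sits on the ribosome near new chains, averaged 79.4 ± 7.002 TPM in hyperoxia and 67.9 ± 3.31 TPM in normoxia (log2 fold change 0.22, limma adjusted p = 0.0159; SD, n = 6 each). Rescaling by median of ratios ended both calls (adjusted p = 0.0963 for DNAJC8 and 0.0518 for DNAJC2), as did the fit without normoxia samples 4 to 6 (0.0642 and 0.0504). The remaining DNAJC genes lay between -0.20 for DNAJC30, a mitochondrial J protein, and 0.25 for DNAJC24, a diphthamide synthesis factor; neither passed (limma adjusted p = 0.0534 and 0.0573). DNAJC9, a histone chaperone, and DNAJC7, a partner of both HSP70 and HSP90, had log2 fold changes of -0.04 and -0.01 and did not pass. Neither gene of the endoplasmic reticulum membrane pair passed. DNAJB12 averaged 25.4 ± 1.24 TPM in hyperoxia and 28.1 ± 1.77 TPM in normoxia (SD, n = 6 each; log2 fold change -0.14, limma adjusted p = 0.0651). DNAJB14 averaged 33.4 ± 3.63 TPM in hyperoxia and 28.7 ± 6.71 TPM in normoxia (SD, n = 6 each). Its log2 fold change was 0.24 (limma adjusted p = 0.225) with all samples and 0.05 without normoxia samples 4 to 6 (adjusted p = 0.858). Normoxia samples 1 and 2 of DNAJB14 lay within the hyperoxia range, at 37.2 and 37.4 TPM, and the other 4 below it.

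**Figure D3:**
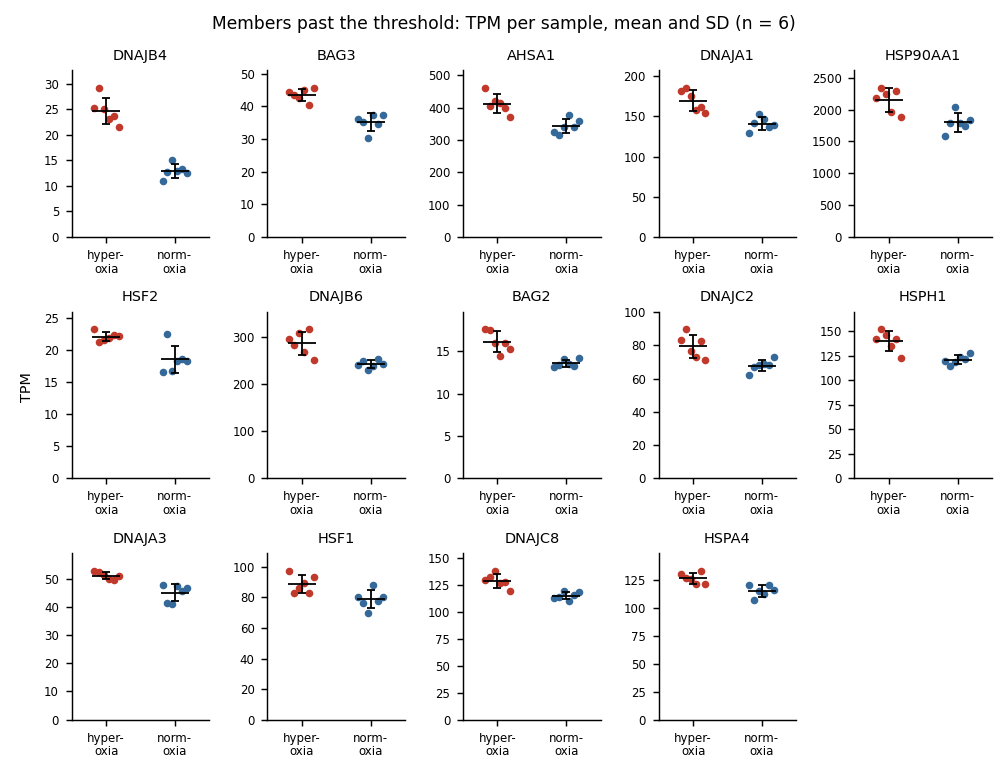
TPM per sample (y axes from 0) of the 14 members past the threshold, hyperoxia in red and normoxia in blue; black bars are the mean and SD of 6 samples. DNAJB4 separates the groups most, at 21.6 to 29.2 TPM in hyperoxia against 10.9 to 15.2 TPM in normoxia.

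None of the 5 tested HSP70 genes passed, and 5 further ones averaged under 1 TPM. HSPA8 (ENSG00000109971), the constitutive HSC70 and the member with the highest mean over all samples, measured 2062 to 2161 TPM (median 2131) in hyperoxia and 2048 to 2402 TPM (median 2263) in normoxia. Its log2 fold change was -0.09 (SE 0.04, limma adjusted p = 0.111; unadjusted 95% interval -0.16 to -0.01). Normoxia replicate 1 lay below all hyperoxia samples and the other 5 normoxia samples above them. Without that replicate HSPA8 passed as lower, at -0.11 (limma adjusted p = 0.0205). The stress-inducible pair HSPA1A and HSPA1B code for proteins so alike that reads may be split between them, and each value is uncertain for that reason. HSPA1A measured 65.3 to 81.6 TPM in hyperoxia and 66.9 to 80.7 TPM in normoxia (log2 fold change 0.12, limma adjusted p = 0.184; unadjusted 95% interval -0.01 to 0.25). Hyperoxia replicate 4 was the lowest of all 12 samples there, and without it HSPA1A passed as higher at 0.17 (limma adjusted p = 0.0301). HSPA1B measured 63.8 to 70.1 TPM in hyperoxia, all inside the normoxia range of 54.04 to 77.1 TPM (log2 fold change 0.09, limma adjusted p = 0.429; unadjusted 95% interval -0.06 to 0.24).

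HSPA6, an HSP70 that is made almost only under strong stress, had a low level. It measured 0.05 to 0.41 TPM in hyperoxia and 0.16 to 0.32 TPM in normoxia, overlapping, and was not tested. HSPA9, the mitochondrial HSP70 that also pulls proteins through the inner membrane, averaged 277 ± 11.6 TPM in hyperoxia and 264 ± 11.3 TPM in normoxia (SD, n = 6 each; log2 fold change 0.07, limma adjusted p = 0.212). Summed over the 10 HSP70 genes, the level was 2547 ± 35.4 TPM in hyperoxia and 2658 ± 133 TPM in normoxia (SD, n = 6 each), most of it HSPA8. The 38 J protein genes summed to 1527 ± 54.9 TPM in hyperoxia and 1390 ± 23.7 TPM in normoxia (SD, n = 6 each). For the J proteins every hyperoxia sum of TPM as deposited lay above every normoxia sum, from 1445 to 1577 TPM against 1345 to 1411 TPM. For HSP70 the ranges overlapped. Divided by median-of-ratios size factors, 0.940 for normoxia sample 3 and 1.03 for hyperoxia sample 6, the J protein sums overlapped as well.

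**Figure D4:**
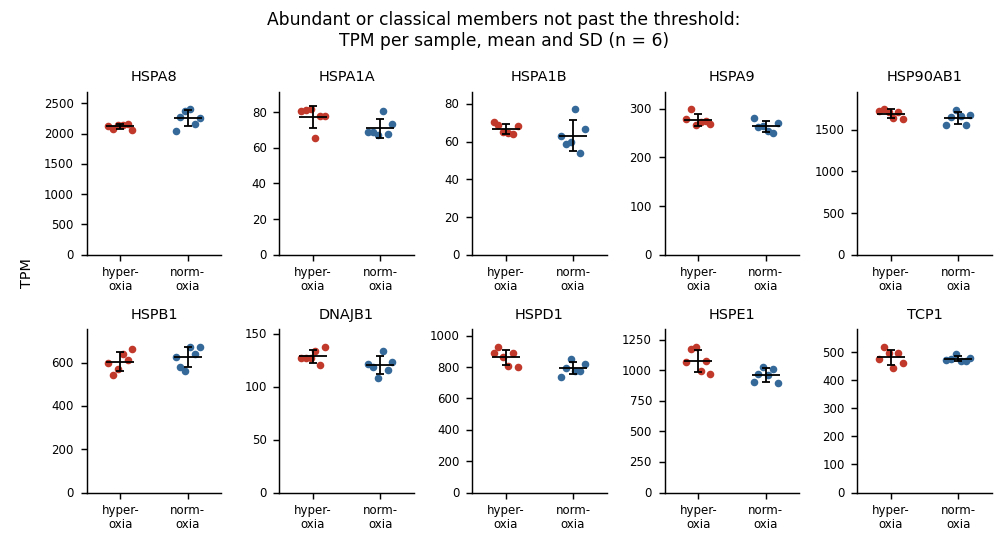
TPM per sample (y axes from 0) of 10 abundant or classical members that did not pass the threshold, hyperoxia in red and normoxia in blue; black bars are the mean and SD of 6 samples. The groups overlap in each panel.

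The HSP110 and BAG families hold nucleotide exchange factors, which release clients from HSP70. In them 2 of 3 HSP110 genes and 2 of 6 BAG genes rose and none fell. Both families are too small to set against the 11.7% of all genes. BAG3 (ENSG00000151929), which hands HSP70 clients to autophagy, measured 40.4 to 45.6 TPM (median 43.9) in hyperoxia and 30.2 to 37.5 TPM (median 35.6) in normoxia. Its log2 fold change, 0.30 (SE 0.05, limma adjusted p = 0.00185), was second to that of DNAJB4 among the called members. BAG2, an inhibitor of the chaperone-linked ubiquitin ligase CHIP, also rose with no overlap, at 14.5 to 17.6 TPM in hyperoxia against 13.1 to 14.2 TPM in normoxia (log2 fold change 0.23, limma adjusted p = 0.00846; 0.0629 without normoxia samples 4 to 6). BAG5 averaged 29.8 ± 2.38 TPM in hyperoxia and 26.5 ± 1.004 TPM in normoxia and lay just outside the threshold (SD, n = 6 each; log2 fold change 0.16, limma adjusted p = 0.0528). BAG1, BAG4 and BAG6 had fold changes of -0.13, -0.05 and -0.02 that did not pass. BAG6, a triage factor for membrane proteins and the most abundant of the family, averaged 161 ± 7.53 TPM in hyperoxia and 164 ± 11.4 TPM in normoxia (SD, n = 6 each).

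HSPH1 (ENSG00000120694), the heat-inducible HSP110, measured 122 to 152 TPM (median 143) in hyperoxia and 115 to 128 TPM (median 121) in normoxia. Only hyperoxia replicate 6 reached into the normoxia range. Its log2 fold change was 0.21 (SE 0.05, limma adjusted p = 0.0106), with an adjusted p of 0.0559 in the exact rank-sum test. HSPA4, a constitutive HSP110, had the smallest rise of the 14, at 122 to 133 TPM in hyperoxia and 107 to 121 TPM in normoxia, separated by less than 1 TPM (log2 fold change 0.13, limma adjusted p = 0.0242). HSPA4 no longer passed after rescaling by median of ratios (adjusted p = 0.108), after quantile normalisation (0.0515), without hyperoxia replicate 5 (0.0541) and without normoxia samples 4 to 6 (0.0751). HSPA4L averaged 16.5 ± 0.83 TPM in hyperoxia and 15.5 ± 0.68 TPM in normoxia (SD, n = 6 each) and did not pass (limma adjusted p = 0.265).

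In the HSP90 family the stress-inducible HSP90AA1 rose, while the constitutive HSP90AB1 did not pass. HSP90AA1 (ENSG00000080824) measured 1883 to 2338 TPM (median 2215) in hyperoxia and 1582 to 2043 TPM (median 1792) in normoxia. Its log2 fold change was 0.26 (SE 0.06, limma adjusted p = 0.0148). The groups overlapped, and the call was lost when genes of any level were tested (adjusted p = 0.0507), after rescaling by median of ratios (0.0691), by exact rank-sum test (0.0559) and without normoxia samples 4 to 6 (0.108). HSP90AB1 (ENSG00000096384) measured 1622 to 1745 TPM in hyperoxia and 1550.0 to 1731 TPM in normoxia (log2 fold change 0.05, limma adjusted p = 0.33; unadjusted 95% interval -0.02 to 0.11). The difference between the fold changes of these 2 genes was not tested. AHSA1 (ENSG00000100591), which speeds up the ATPase of HSP90, measured 373 to 461 TPM (median 409) in hyperoxia and 316 to 379 TPM (median 340.4) in normoxia. It rose by 0.26 (SE 0.05, limma adjusted p = 0.00434), with hyperoxia replicate 6 inside the normoxia range. STIP1, which passes clients between HSP70 and HSP90, and CHORDC1 did not pass, at 0.07 and 0.14 on the log2 scale (limma adjusted p = 0.202 and 0.284).

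Neither chaperonin system had a member past the threshold. HSPD1 (ENSG00000144381), the mitochondrial HSP60, measured 802 to 928 TPM in hyperoxia and 739 to 854 TPM in normoxia (log2 fold change 0.12, limma adjusted p = 0.0671). HSPE1 (ENSG00000115541), the HSP10 lid of that ring, measured 972 to 1191 TPM in hyperoxia and 896 to 1026 TPM in normoxia (log2 fold change 0.16, limma adjusted p = 0.0567). Both overlapped between groups and lay close to the threshold. HSPD1 passed when hyperoxia replicate 4 (adjusted p = 0.0447), hyperoxia replicate 6 (0.0375) or normoxia replicate 3 (0.0345) was left out. HSPE1 passed in 6 alternatives, among them the same 3 fits (adjusted p = 0.039, 0.0276 and 0.0471) and quantile normalisation (0.0431). Genes such as HSPD1, HSPE1, HSPA8 and HSP90AA1 have many processed pseudogenes, and the treatment of reads shared with them by the authors' counting is not stated in any label or header.

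The 8 tested genes of TRiC, the cytosolic ring that folds actin and tubulin, lay between -0.05 and 0.10 on the log2 scale. TCP1, subunit 1 of the ring, averaged 482 ± 27.1 TPM in hyperoxia and 477 ± 8.64 TPM in normoxia (log2 fold change 0.02, limma adjusted p = 0.816; unadjusted 95% interval -0.06 to 0.09). CCT3, the most abundant subunit, averaged 599.9 ± 20.03 TPM in hyperoxia and 571 ± 19.8 TPM in normoxia (SD, n = 6 each; limma adjusted p = 0.122). CCT5 had a fold change of -0.05 (limma adjusted p = 0.528) and CCT8 the highest of the ring, 0.10 (limma adjusted p = 0.114). For CCT2 and CCT4 the authors' deposited table gives fold changes of 2.02 and 2.01, with p-values of 0.761 and 0.962. The group means in the authors' deposited table, 354 TPM in hyperoxia and 343 TPM in normoxia for CCT2 and 239 and 236 TPM for CCT4, give log2 ratios of 0.05 and 0.02. Here the sample values were used (log2 fold change 0.05 for CCT2 and 0.02 for CCT4), and neither passed. CCT6B, a form known from testis, averaged under 1 TPM.

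Small heat shock proteins, which hold unfolding proteins without ATP, were represented almost entirely by HSPB1. HSPB1 (ENSG00000106211), known as HSP27, measured 545 to 666 TPM (median 607) in hyperoxia and 562 to 673 TPM (median 634) in normoxia. The groups overlapped over most of their range (log2 fold change -0.05, limma adjusted p = 0.61; unadjusted 95% interval -0.17 to 0.07). HSPB11, now known as an intraflagellar transport protein, did not pass at 0.13 (limma adjusted p = 0.0933). HSPB2, HSPB6, HSPB8 and HSPB9 averaged under 1 TPM, and HSPB3 and HSPB7 were listed at 0 in all 12 samples.

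**Figure D5:**
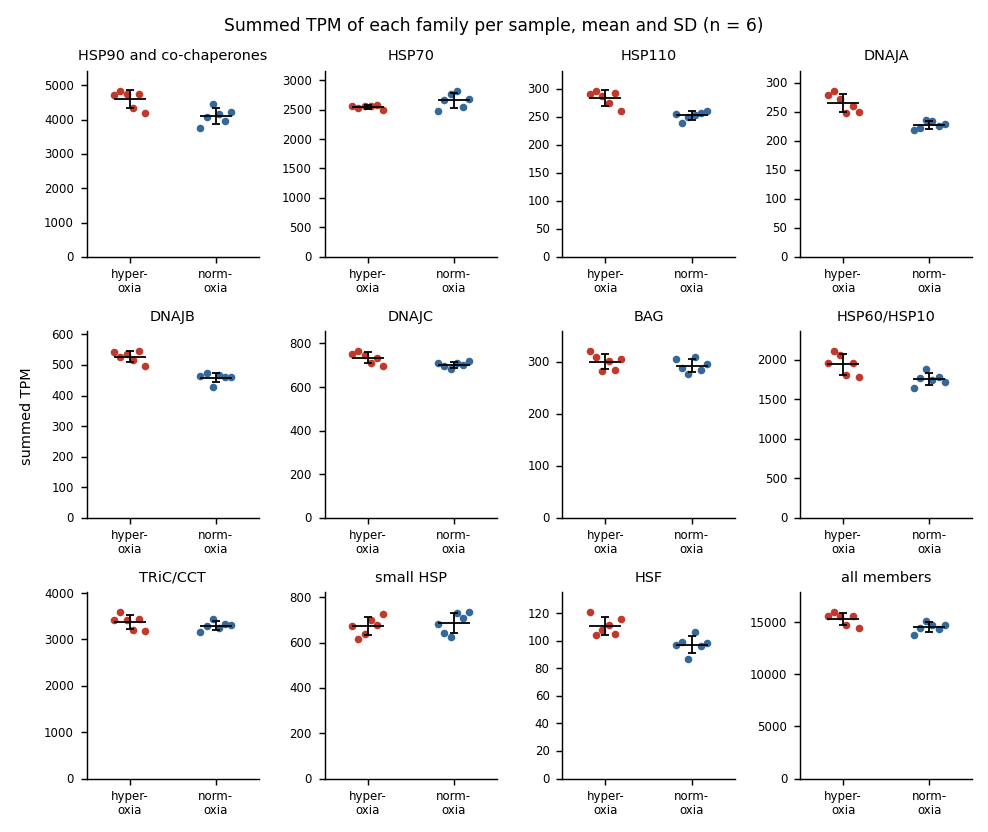
Summed TPM of each family per sample (y axes from 0), hyperoxia in red and normoxia in blue, with the mean and SD of 6 samples in black. With TPM as deposited, HSP110, DNAJA and DNAJB sums do not overlap between groups, while those of HSP70, TRiC and the small heat shock proteins do.

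By family, with TPM as deposited, the summed levels of HSP110, DNAJA and DNAJB did not overlap between groups. HSP110 summed to 259.8 to 297 TPM in hyperoxia and 238 to 259.6 TPM in normoxia, a gap far smaller than either range. DNAJA summed to 248 to 287 TPM in hyperoxia and 219 to 236 TPM in normoxia, and DNAJB to 497 to 544 TPM in hyperoxia and 428 to 473 TPM in normoxia. Median-of-ratios size factors ran from 0.940 for normoxia sample 3 to 1.03 for hyperoxia sample 6. Divided by these factors, the sums of each of these families overlapped between groups. All 83 members together made up 15352 ± 581 TPM in hyperoxia and 14532 ± 468 TPM in normoxia (SD, n = 6 each), with overlapping ranges. HSP90AA1, HSPA8, HSP90AB1 and HSPE1 averaged over 1000 TPM across the 12 samples, and a further 20 members lay between 100 and 1000 TPM. Levels of tested members varied between samples of a group by a median coefficient of variation of 7.2% in hyperoxia and 6.93% in normoxia.

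The authors' own test gave a wider set of calls. Of the 79 members that the authors' deposited table tests, 18 have an adjusted p under 0.05 with a positive fold change and 3 with a negative one. Over all 32380 genes that it tests these shares are 7.17% and 6.72%. That larger set includes genes under 1 TPM, so its shares are not those of the 14520 genes tested here. The 18 include 13 of the 14 called here, all but HSPA4, and add BAG5, HSPA4L, DNAJC24, CHORDC1 and DNAJB1. The 3 with a negative fold change are DNAJB12, DNAJC5 and DNAJC30, which also passed as lower here with median-of-ratios scaling. None of the 83 members is among the 357 genes that the authors' deposited table marks as significant. That mark does not rest on adjusted p alone, unlike the calls here. DNAJB4 is unmarked with an adjusted p of 1.07e-31 in the authors' own test and a fold change of 1.82.

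Chaperone partners outside the rule were read from the same fit, in which 11.7% of all genes were higher, 5.63% lower and the median log2 fold change was 0.03. The partner lists were chosen with earlier results of these data known, so their shares describe these lists only. Of 17 further HSP90 co-chaperones, all tested, 9 (52.9%) rose and none fell, with a median log2 fold change of 0.15. TOMM34, which links HSP70 and HSP90 to mitochondrial import, averaged 80.2 ± 2.69 TPM in hyperoxia and 63.3 ± 2.03 TPM in normoxia (SD, n = 6 each; log2 fold change 0.34, limma adjusted p = 2.42e-05). CDC37, which brings kinases to HSP90, averaged 433 ± 12.7 TPM in hyperoxia and 357 ± 20.4 TPM in normoxia (SD, n = 6 each; log2 fold change 0.28, limma adjusted p = 3.13e-04). NUDC and the immunophilin FKBP4 rose by 0.31 and 0.21, each without overlap between groups. Without normoxia samples 4 to 6, 6 of the 9 passed, against 6.89% of all genes higher; PTGES3, SUGT1 and UNC45A did not. Of 7 HSP70 partners only GRPEL1, the exchange factor of mitochondrial HSP70, rose, at 111 ± 7.91 TPM in hyperoxia against 86.5 ± 6.59 TPM in normoxia (log2 fold change 0.36, limma adjusted p = 0.00112). Of 8 genes of prefoldin, which feeds clients to TRiC, and of prefoldin-like proteins, PFDN1 and PFDN2 rose and UXT fell. PFDN1 lost its call after rescaling by median of ratios, and PFDN2 without normoxia samples 4 to 6.

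Of 9 mitochondrial chaperone and protease genes, AFG3L2 and CLPX rose and none fell, while the mitochondrial HSP90 TRAP1 averaged 175 ± 4.80 TPM in hyperoxia and 164 ± 10.9 TPM in normoxia (SD, n = 6 each) without passing. CLPX lost its call under both other scalings, by rank-sum test and without normoxia samples 4 to 6, where TRAP1 and CLPP passed as higher; under both scalings the protease LONP1 passed as lower. Among further genes linked to HSF1, IER5, which promotes HSF1 activity, rose by 0.25, and the ubiquitin gene UBB fell, at -0.15. CRYAB, a small heat shock protein, averaged under 1 TPM in both groups. The 7 chaperones of the endoplasmic reticulum left out by the rule split, with DNAJB9 higher at 0.34, HSPA5 and HSPA13 lower at -0.40 and -0.18, and 4 that did not pass. HSPA5, the HSP70 of that compartment, measured 174 to 212 TPM in hyperoxia and 229 to 272 TPM in normoxia, without overlap. The calls of DNAJB9 and HSPA5 were kept under both other scalings, by rank-sum test and without normoxia samples 4 to 6, while HSPA13 missed the threshold by rank-sum test (adjusted p = 0.112). Whether these genes differ from the cytosolic members in their change was not tested.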

How the data were processed

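Total RNA of 12 H1299 samples was sequenced. Counting used HTSeq 0.9.1 and testing edgeR 3.16.5, per the submitters' processing notes; no source used here names the aligner, annotation or TPM step. The labels name both a TruSeq kit and a directional kit after rRNA depletion, so strandedness is not settled. The notes list a mouse build although all identifiers are human, so no coordinates were taken with the table. Per the file headers the deposited values are TPM per sample and group means in TPM, and the authors' own test: for each gene a linear fold ratio, a log2 fold change and raw and adjusted p-values. In 78 genes, CCT2 and CCT4 among them, those deposited numbers disagree with each other.

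A gene was tested when it averaged at least 1 TPM over the 12 samples. Groups were compared on log2(TPM + 1) with limma 3.58.1 (eBayes with trend, R 4.3.3), two-sided, Benjamini-Hochberg adjusted over all genes tested; this scale understates the change of low genes. The limma step was tested on simulated data. Named members are those that passed, the 3 with the highest mean of each family and 15 set genes; BAG4, BAG5, CCT2, CCT4, CCT6A, CCT6B, CCT8, CHORDC1, STIP1, DNAJB12, DNAJC4, DNAJC5, DNAJC19, DNAJC24, DNAJC30 and members under 1 TPM were added after their values were seen. The members and lists were chosen with earlier results of these data known. Depth is unknown, so no counting intervals are given. Alternatives are in the closing section. Some genes of the marker and partner lists are not reported here. Same-numbered samples did not deviate together (correlations of -0.12 to 0.02).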

Additional observations from a re-analysis of the deposited data

Results flagged for a closer look

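In 7 of 128 groups (64 tested members in 2 conditions) 1 sample lay far from the other 5, with a gap to its nearest neighbour above Dixon's 95% critical value as a share of the group's range; chance flags about 1 in 20 groups. In hyperoxia, HSPA9 reached 299 TPM in replicate 2, DNAJC4 reached 20.6 TPM in replicate 6, and replicate 4 was low for HSPA1A at 65.3 TPM and for DNAJC19, a mitochondrial import factor, at 35.3 TPM. In normoxia, replicate 3 was high for CCT6A at 428 TPM and for CCT4 at 251 TPM, and replicate 2 was high for HSF2 at 22.5 TPM. Without hyperoxia replicate 4 the HSPA1A call changes, as given above.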

How the results depend on the processing

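Over all alternatives for 34 named and tested members, 705 values kept their side of the threshold, 32 lost it and 11 gained it; no called value reversed. The 14 higher members became 13 to 18, and the 0 lower members 0 to 2, when single samples were left out; over all genes the higher calls then ranged from 1330 to 1558 and the lower from 602 to 934, against 1698 and 818. Lower members numbered 3 with median-of-ratios scaling, 3 with quantile normalisation and 1 without the mean-variance trend. Lower genes numbered 1277 with median-of-ratios scaling (1279 higher) and 515 with the exact rank-sum test. Without normoxia samples 4 to 6, 5 members were higher, and 1000 genes were higher and 375 lower; this fit has fewer samples. For the scalings and the rank-sum test the cause was not tested. The labels state no pairing by sample number, and same-numbered samples did not deviate together. With a replicate block 15 members were higher, the 14 and HSPE1 (limma adjusted p = 0.0182), and none lower. Leaving out the 78 genes whose deposited values disagree left 14 higher members. TPM gives no depth, so changes of members near 1 TPM cannot be bounded.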
